A study of Mus musculus with 40 samples.

Results

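The genes described here encode structural subunits of the mitochondrial respiratory chain and of ATP synthase. They were taken by symbol from the array annotation: the Nduf genes of complex I without its assembly factors, the Sdh genes of complex II, the Uqcr genes of complex III, the Cox5 to Cox8 subunits of complex IV and the Atp5 genes. Not every subunit is covered: Cox4i1, Cyc1 and Ndufab1 fall outside the symbol patterns, and Sdha was not among the genes found. The rule found 77 genes with 96 probes, of 16593 gene symbols and 25697 probes on the array. By symbol they divided into 34 complex I, 3 complex II, 8 complex III, 16 complex IV and 16 ATP synthase genes. Ndufs5-ps is by its symbol a pseudogene of a complex I subunit and was kept because the symbol fits the rule. Whether its probe reads RNA of the parent gene was not tested.

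The chain passes electrons from NADH, through complex I, and from succinate, through complex II, to ubiquinone and complex III, then by cytochrome c to complex IV, which reduces oxygen. Complexes I, III and IV pump protons across the inner mitochondrial membrane, and ATP synthase uses the returning protons to make ATP. Colonic epithelial cells are known to burn butyrate from bacterial fermentation in their mitochondria, whereas small intestinal enterocytes draw on glutamine as well as other fuels.

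The arrays came from female mice, 9 weeks old and free of specified pathogens, of the strains BALB/c (from Janvier) and C57BL/6 (from Charles River), so strain and supplier cannot be told apart. Mice received VSL#3, a probiotic mixture of live bacteria, or PBS, the carrier alone, by gavage in 200 µl, 3 times a week for 4 weeks. Colon and small intestine were taken from each of 20 mice, giving 8 groups of 5 arrays: VSL#3-treated BALB/c colon, PBS-treated BALB/c colon, VSL#3-treated C57BL/6 colon, PBS-treated C57BL/6 colon and the same order in small intestine. No part of the small intestine was named in the labels. RNA was total RNA of frozen tissue, so the values are averages over epithelium, muscle and other cells, and fewer cells of a type cannot be told apart from less RNA per cell.

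Between 11898 and 13518 probes were above background on an array, and arrays of a group correlated at 0.973 to 0.988 over all probes. Tissue labels matched their markers: Sis, the sucrase-isomaltase of small intestine, lay at 4.44 to 7.05 log2 in colon and at 13.03 to 13.84 in small intestine, whereas Aqp8, a colonic water channel, lay at 11.07 to 11.58 in colon and at 4.67 to 5.92 in small intestine. Markers of pancreatic acinar cells were high on 3 colon arrays, VSL#3-treated BALB/c replicates 4 and 5 and PBS-treated C57BL/6 replicate 3, whose mean log2 intensity over 7 acinar markers was 12.54 to 13.38, against 5.73 to 10.55 on the other 17 colon arrays. In the comparisons within colon, leaving these 3 arrays out moved the count of members called by over 1.5 times only for the strains in VSL#3-treated mice, where it is given. PBS-treated BALB/c replicate 5, the array at 10.55, was kept. The comparisons of colon with small intestine were not refitted without these 3 mice together.

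A gene was represented by its brightest probe and tested where that probe was detected, at a detection p under 0.05, on at least 5 arrays of the tissue. Of the 77 genes, 72 were tested in both tissues, and 67 of the probes used were detected on all 40 arrays. The 5 others gave almost no signal on their only probe: Cox7b2 and Cox8c, which are testis forms of complex IV subunits, Ndufs1 of the complex I electron input module, Uqcrfs1, the Rieske iron-sulfur protein, and Uqcrq. Ndufs1 ranged from 4.32 to 5.14 log2 and was detected on 0 of 40 arrays, so nothing is known from these probes of the level of genes that every respiring cell uses. Members are bright on this array, and their median standard deviation within groups was 0.140 log2, against 0.25 over all 9200 genes tested in both tissues.

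Promoter sequence is shown for 6 members as examples. They are 5 of those higher in colon in every group of mice, Cox5b, Cox6a1, Ndufb4, Ndufa6 and Ndufa1, and Ndufa4. Ndufa4 was the only member lower in every group. Each line gives the 250 bases before the RefSeq gene start in the build GRCm38.p6, read along the gene. Capitals mark the NRF1 word, which reads GCGCA, then any base, then GCGC, the shorter word TGCGCA, which may overlap it, or the ETS/GABP word CCGGAAG, on either strand. NRF1 and GABP are transcription factors known to bind promoters of respiratory genes.
Cox5b (chr1:36691237-36691486, plus strand): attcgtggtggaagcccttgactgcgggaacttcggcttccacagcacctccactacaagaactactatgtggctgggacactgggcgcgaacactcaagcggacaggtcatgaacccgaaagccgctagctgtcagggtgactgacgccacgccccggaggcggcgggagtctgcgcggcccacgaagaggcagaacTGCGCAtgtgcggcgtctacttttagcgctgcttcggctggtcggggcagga
Cox6a1 (chr5:115348959-115349208, minus strand): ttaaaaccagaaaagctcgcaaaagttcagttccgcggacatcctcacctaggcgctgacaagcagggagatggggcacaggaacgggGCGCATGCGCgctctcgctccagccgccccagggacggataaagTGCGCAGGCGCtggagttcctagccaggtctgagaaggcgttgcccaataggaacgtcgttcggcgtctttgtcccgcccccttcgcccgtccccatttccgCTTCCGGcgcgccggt
Ndufb4 (chr16:37654369-37654618, minus strand): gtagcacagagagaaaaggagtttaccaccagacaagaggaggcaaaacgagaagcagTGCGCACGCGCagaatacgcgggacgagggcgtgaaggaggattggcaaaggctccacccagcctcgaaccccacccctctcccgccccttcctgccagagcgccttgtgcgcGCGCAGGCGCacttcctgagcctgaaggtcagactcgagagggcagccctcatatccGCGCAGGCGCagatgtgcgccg
Ndufa6 (chr15:82354292-82354541, minus strand): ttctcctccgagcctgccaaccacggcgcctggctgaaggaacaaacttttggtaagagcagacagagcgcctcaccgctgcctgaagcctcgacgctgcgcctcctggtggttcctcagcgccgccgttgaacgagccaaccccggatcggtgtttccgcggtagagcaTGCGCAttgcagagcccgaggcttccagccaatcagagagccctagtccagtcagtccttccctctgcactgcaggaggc
Ndufa1 (chrX:37191239-37191488, minus strand): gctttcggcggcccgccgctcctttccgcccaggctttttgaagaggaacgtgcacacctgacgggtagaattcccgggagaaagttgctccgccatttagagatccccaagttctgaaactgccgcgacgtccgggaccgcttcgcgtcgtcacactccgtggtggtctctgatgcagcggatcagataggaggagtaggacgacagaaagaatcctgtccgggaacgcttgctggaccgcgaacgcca
Ndufa4 (chr6:11907451-11907700, minus strand): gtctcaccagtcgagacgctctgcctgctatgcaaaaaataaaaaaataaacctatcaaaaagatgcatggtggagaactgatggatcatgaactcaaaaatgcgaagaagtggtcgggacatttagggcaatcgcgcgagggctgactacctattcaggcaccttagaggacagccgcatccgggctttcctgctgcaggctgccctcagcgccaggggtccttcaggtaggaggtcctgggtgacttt
Cox6a1 and Ndufb4 each hold the whole NRF1 word, at -162 and -117 in Cox6a1 and at -191, -79 and -22 in Ndufb4, counted from the gene start to the first base of the word. Cox5b holds only the shorter word, at -52, and Ndufa6 holds it at -80. None of these words is in the windows of Ndufa1 and Ndufa4, which says only that these letters are not there. Of the 64 members with an entry in the promoter table, 9 held the whole NRF1 word, or 14.1%, against 3.86% of 27025 gene promoters. The shorter word was in 12 members, or 18.8%, against 6.66%, and the ETS/GABP word in 11, or 17.2%, against 7.05%. The YY1 word AAGATGGC was in 0 members, against 1.59% of all promoters, the TATA word TATAAA in 6, or 9.38%, against 13%, and the CCAAT word in 28, or 43.8%, against 34.5%. Of the 25 members higher in colon in every group that have an entry, 4 held the whole NRF1 word, or 16%. The shorter word was in 6 of them, or 24%, and the ETS/GABP word in 5, or 20%. Whether these shares differ from those of all 64 members was not tested. Ndufa7, Ndufv3, Uqcr10 and Cox8a, not shown, held neither NRF1 word nor the ETS/GABP word. Their mean colon excesses were 0.67, 0.65, 0.63 and 0.52 log2. Whether these words go with the size of the colon excess was not tested.

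The comparison of colon with small intestine of the same mouse asked how the chain differs along the gut. Most of these genes were higher in colon. Of 72 members tested, 37 were higher and 2 lower in VSL#3-treated BALB/c mice, 31 higher and 3 lower in PBS-treated BALB/c mice, 43 higher and 4 lower in VSL#3-treated C57BL/6 mice, and 42 higher and 1 lower in PBS-treated C57BL/6 mice (limma on within-mouse differences, adjusted p under 0.05 over 9200 genes). The shares higher were 51.4%, 43.1%, 59.7% and 58.3%. Over all genes tested, 22.9%, 24.2%, 25.4% and 25.2% were higher in the same 4 groups, and 19.3%, 17.2%, 18.8% and 18.2% were lower, against 2.78%, 4.17%, 5.56% and 1.39% of the members. The median member difference was 0.21, 0.18, 0.26 and 0.28 log2 in that order, against medians of 0.01, 0.04, 0.04 and 0.04 over all genes. The median standard error of a member here was 0.08 log2. When arrays were scaled to their medians instead, 25 of 72 members were called in VSL#3-treated BALB/c mice.

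Across the 4 groups, 27 members, 37.5%, were higher in colon in every one, against 15% of all genes, and 1, Ndufa4, was lower in every one, or 1.39% against 10.4%. In 24 members, 33.3%, colon exceeded small intestine in all 20 mice, which held for 13.1% of all genes. A further 25 members were higher in 1 to 3 groups, 14 were called in no group, and Atp5o, Uqcrc1, Sdhb, Cox7a1 and Cox6b2 were lower in 1 or 2 groups. These last classes were not counted over all genes, so whether their sizes are particular to the members is not known.

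**Figure D1:**
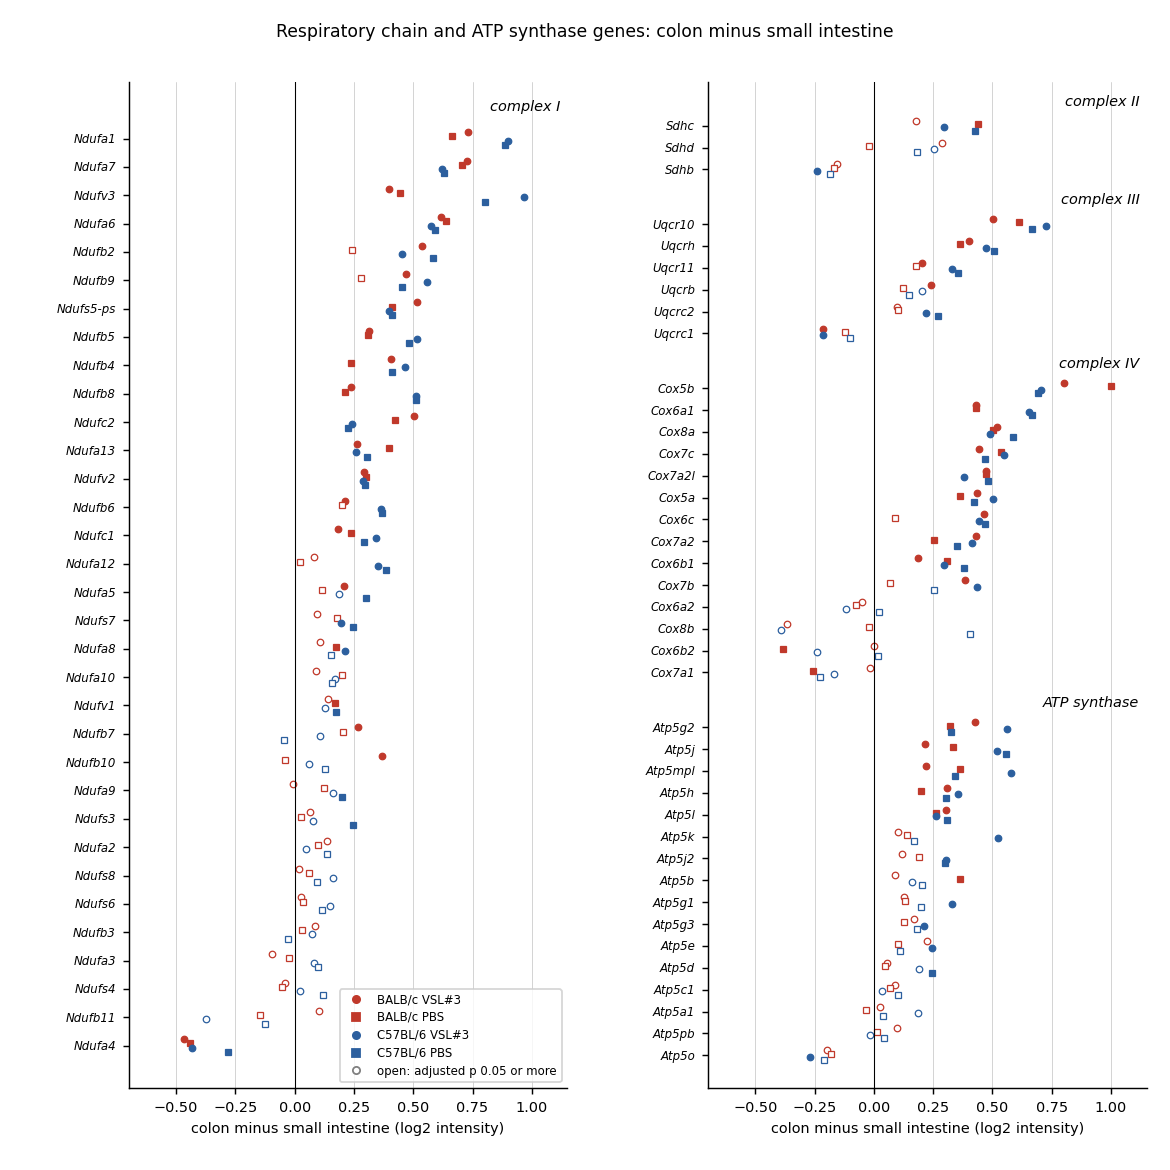
Colon minus small intestine (log2 intensity, horizontal axis) for the 72 genes tested, by complex as read from the symbol, as the mean of 5 mice in each of 4 groups. Colours give the strain, circles are VSL#3 and squares PBS, and filled symbols have an adjusted p under 0.05. Cox5b and Ndufa1 lie right of 0 in every group, whereas Ndufa4 lies left of 0 in every group.

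Complex IV had the highest median difference, 0.36 log2 over the mean of 20 mice, with 8 of its 14 tested genes higher in every group. The medians were 0.20 for complex I (12 of 33 higher in every group), 0.18 for complex II (0 of 3), 0.22 for complex III (2 of 6) and 0.20 for ATP synthase (5 of 16). Genes were placed in complexes by symbol, so Ndufa4, lower in colon in every group, counts in complex I here and not in complex IV. Differences between complexes were not tested.

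Cox5b, a nuclear-encoded subunit of cytochrome c oxidase that binds zinc, had the largest mean difference. It lay at 13.62 to 14.26 log2 in colon, with a median of 13.93, and at 12.75 to 13.43 in small intestine, with a median of 13.15. The 20 colon arrays did not overlap the 20 small intestinal arrays. The difference was 0.80 ± 0.095 in VSL#3-treated BALB/c mice, 1.00 ± 0.095 in PBS-treated BALB/c mice, 0.70 ± 0.095 in VSL#3-treated C57BL/6 mice and 0.69 ± 0.095 in PBS-treated C57BL/6 mice (log2 ± SE, n = 5 mice each, limma adjusted p 7.28e-07, 3e-08, 3.96e-06 and 5e-06). The mean over 20 mice, 0.80, is a 1.74-fold difference.

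Ndufa1, a small membrane subunit of complex I encoded on the X chromosome, was close behind. It lay at 12.48 to 13.26 log2 in colon (median 12.97) and at 11.76 to 12.39 in small intestine (median 12.18), again without overlap. The difference was 0.73 and 0.66 log2 in VSL#3-treated and PBS-treated BALB/c mice, and 0.90 and 0.89 in VSL#3-treated and PBS-treated C57BL/6 mice (SE 0.088, largest limma adjusted p 2.83e-06). Ndufa7, an accessory subunit of complex I, lay at 11.53 to 12.06 log2 in colon and at 10.95 to 11.26 in small intestine. Ndufa6, another accessory subunit, lay at 12.27 to 12.82 and at 11.55 to 12.16 in colon and small intestine. Both were higher in colon in all 20 mice, by means of 0.67 and 0.60 log2, and neither overlapped between tissues.

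Ndufv3, a subunit of the NADH-oxidizing module, differed between strains in its colon excess in VSL#3-treated mice. Its colon excess was 0.40 and 0.44 log2 in VSL#3-treated and PBS-treated BALB/c mice, and 0.97 and 0.80 in VSL#3-treated and PBS-treated C57BL/6 mice (SE 0.079). The BALB/c excess minus the C57BL/6 excess was -0.57 ± 0.111 in VSL#3-treated mice (limma adjusted p 0.00614) and -0.36 ± 0.111 in PBS-treated mice (limma adjusted p 0.0886). It was the only member called in this interaction, 1.39% against 2.82% of all genes, and 0 members were called in PBS-treated mice, against 3.08% (8 members had an unadjusted p under 0.05 there). A second Ndufv3 probe, at a mean of 11.23 log2, gave colon excesses of 0.57 and 0.41 in VSL#3-treated and PBS-treated BALB/c mice and of 0.93 and 0.76 in VSL#3-treated and PBS-treated C57BL/6 mice. Another Ndufv3 probe, at a mean of 5.49, was called in no group.

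In complex III, Uqcr10, one of its smallest subunits, lay at 13.67 to 14.15 log2 in colon (median 14.00) and at 13.05 to 13.55 in small intestine (median 13.30), with no overlap. Its mean difference over 20 mice was 0.63 log2, and its other probe gave 0.61 to 0.71 in the 4 groups. Uqcrh, the hinge protein beside cytochrome c1, was higher in colon in all 20 mice, at 13.38 to 13.77 log2 against 13.05 to 13.29. The core proteins differed: Uqcrc2 was higher in colon in both C57BL/6 groups, by 0.22 with VSL#3 and 0.27 with PBS, whereas Uqcrc1 was lower in both VSL#3 groups, by -0.22 in BALB/c and -0.22 in C57BL/6 mice (SE 0.073, limma adjusted p 0.0221 and 0.0201). In PBS-treated mice Uqcrc1 differed by -0.12 in BALB/c and -0.10 in C57BL/6, short of the threshold.

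In complex II, Sdhc, a membrane anchor, and Sdhb, the iron-sulfur subunit, had opposite signs. Sdhc lay at 10.98 to 11.56 log2 in colon and 10.62 to 11.37 in small intestine and exceeded small intestine in all 20 mice, by a mean of 0.33, with 3 of 4 groups past the threshold (0.18 ± 0.076 in VSL#3-treated BALB/c mice, limma adjusted p 0.0652). Sdhb was lower in colon in 19 of 20 mice, by a mean of -0.19, and on this probe passed in VSL#3-treated C57BL/6 mice (-0.24 ± 0.077, limma adjusted p 0.0151). A second Sdhb probe, at a mean of 10.29, gave 0.08 and -0.06 in VSL#3-treated and PBS-treated BALB/c mice, and -0.40 and -0.35 in VSL#3-treated and PBS-treated C57BL/6 mice, where both passed (limma adjusted p 0.00108 and 0.00348). Another, dim Sdhb probe passed in no group, nor did a dim second Sdhc probe. Sdhd, the other anchor, passed in no group, with differences of -0.02 to 0.29.

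Several complex IV subunits exist as a form common to most tissues and a form of heart and skeletal muscle, and the array holds both. The common forms were higher in colon. Cox6a1 lay at 13.73 to 14.12 log2 in colon and at 13.15 to 13.62 in small intestine, without overlap, and its second probe gave differences of 0.41 to 0.67 in the 4 groups. Cox8a had medians of 13.79 in colon and 13.25 in small intestine, and Cox7a2 at 9.61 to 10.23 against 9.16 to 9.87. Cox7a2l, which takes part in assembling supercomplexes of the chain, lay at 10.80 to 11.42 in colon and 10.32 to 10.93 in small intestine. Each of these 4 genes was called higher in every group of mice and was higher in colon in all 20 mice. Cox6b1, the common partner of Cox6b2, was also called in every group, but its second probe missed the threshold in PBS-treated BALB/c mice (0.18, limma adjusted p 0.0502), as did that of Ndufc1 of complex I (0.12, limma adjusted p 0.361).

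The muscle forms did not follow. Cox7a1 lay at 10.46 to 11.01 log2 in colon (median 10.76) and at 10.44 to 11.41 in small intestine (median 10.90), so the tissues overlapped. Colon minus small intestine was -0.02, -0.26, -0.17 and -0.23 in VSL#3-treated BALB/c, PBS-treated BALB/c, VSL#3-treated C57BL/6 and PBS-treated C57BL/6 mice (SE 0.096), with PBS-treated BALB/c past the threshold (limma adjusted p 0.0381). Cox6a2 was near background, detected on 6 of 20 colon and 7 of 20 small intestinal arrays. Cox8b was dim, with a median of 5.73 log2 in colon and 5.83 in small intestine, and passed in no group. A single colon array stood out: PBS-treated C57BL/6 replicate 3 had 8.31, against 5.23, 6.06, 5.70 and 5.81 on the other 4 arrays of its group. On the same array Ucp1 and Cidea, genes of brown fat, were at 7.32 and 7.09 log2 and were detected there only within that group, and acinar markers such as Prss2 were at 13.62. Their part in the Cox8b value was not tested. Cox6b2, a testis form, was also dim, at 4.96 to 6.65 log2 in colon and 5.11 to 6.48 in small intestine.

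**Figure D2:**
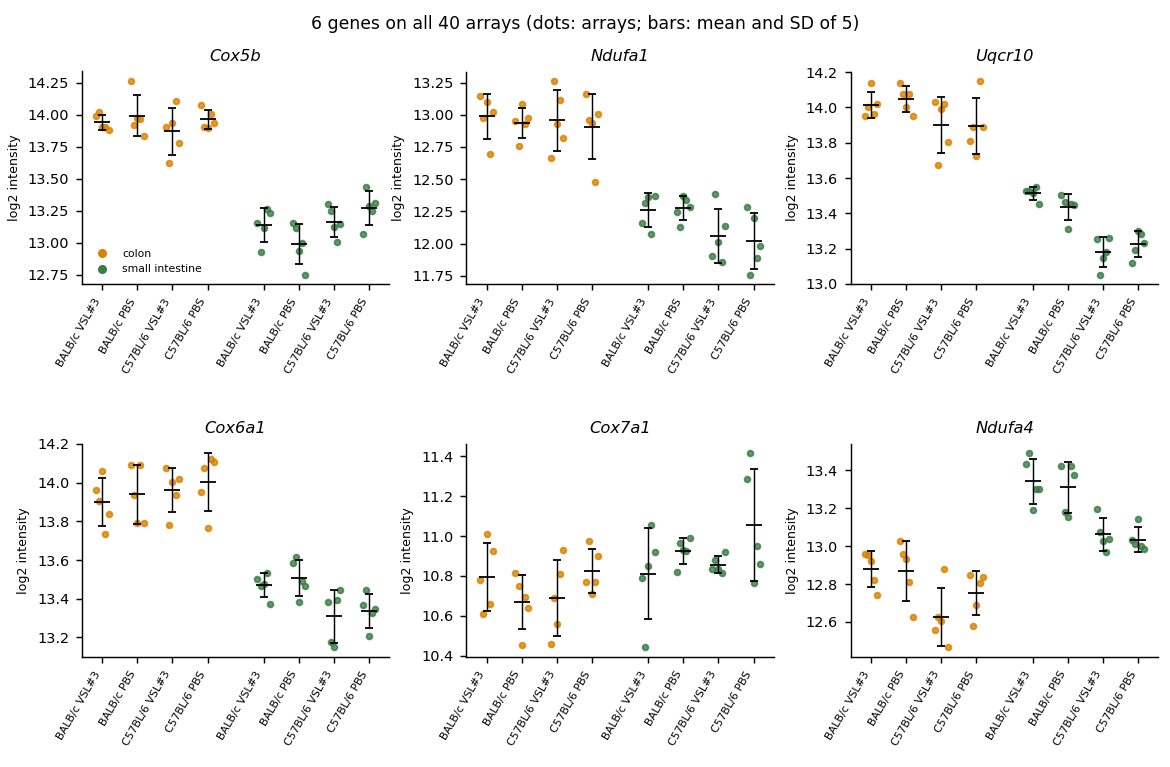
Log2 intensity (vertical axis, each panel with its own range) of 6 genes on the 40 arrays, 5 per group, with colon groups in orange left of small intestinal groups in green, and bars for mean and SD. Cox5b, Ndufa1, Uqcr10 and Cox6a1 separate the tissues, Cox7a1 overlaps, and Ndufa4 is lower in colon.

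Ndufa4 was named for complex I and has since been assigned to complex IV. It lay at 12.47 to 13.03 log2 in colon (median 12.82) and at 12.97 to 13.49 in small intestine (median 13.17), and colon was lower in all 20 mice, by a mean of -0.41. The difference was -0.47 in VSL#3-treated BALB/c, -0.44 in PBS-treated BALB/c, -0.43 in VSL#3-treated C57BL/6 and -0.28 in PBS-treated C57BL/6 mice (SE 0.089, limma adjusted p 0.000253, 0.000413, 0.000459 and 0.0138).

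In ATP synthase, the subunits called higher in colon in every group on their brightest probe were Atp5g2, Atp5h, Atp5j, Atp5l and Atp5mpl. Atp5g1, Atp5g2 and Atp5g3 encode the same mature c subunit of the membrane ring from different genes. Atp5g2 was higher in colon in all 20 mice, by 0.43 and 0.32 log2 in VSL#3-treated and PBS-treated BALB/c mice and by 0.56 and 0.32 in VSL#3-treated and PBS-treated C57BL/6 mice (SE 0.068). Atp5g1 and Atp5g3 differed by 0.13 to 0.33 and by 0.13 to 0.21, and each passed in VSL#3-treated C57BL/6 mice alone. Whether the c subunit genes differ among themselves was not tested. Atp5j, a subunit of the stalk, lay at 13.18 to 13.55 log2 in colon and 12.75 to 13.19 in small intestine on its brightest probe. A second Atp5j probe, at a mean of 8.18 and detected on all 40 arrays, differed by 0.02 to 0.16 and was called in no group (smallest limma adjusted p 0.154), nor was another, dimmer one. Of the catalytic head, Atp5b passed in PBS-treated BALB/c mice alone (0.36 ± 0.090, limma adjusted p 0.00266) and Atp5a1 in no group (-0.03 to 0.19). Atp5o, which links head and stalk, was lower in colon in 18 of 20 mice and passed in VSL#3-treated C57BL/6 mice (-0.27 ± 0.094, limma adjusted p 0.026).

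Other genes of the pathway gave a mixed picture. The counts here and in the next 2 paragraphs stand beside the shares over all genes tested. In VSL#3-treated BALB/c, PBS-treated BALB/c, VSL#3-treated C57BL/6 and PBS-treated C57BL/6 mice, 22.9%, 24.2%, 25.4% and 25.2% of all genes were higher in colon. In the same order, 19.3%, 17.2%, 18.8% and 18.2% were lower. Of 34 tested assembly factors of the chain, 13, 10, 10 and 15 were higher in colon and 2, 3, 5 and 4 lower, in VSL#3-treated BALB/c, PBS-treated BALB/c, VSL#3-treated C57BL/6 and PBS-treated C57BL/6 mice. Surf1, an assembly factor of complex IV, was higher in each, by 0.63, 0.72, 0.83 and 0.83 log2. Of 17 genes of the citric acid cycle and pyruvate dehydrogenase, 8, 6, 7 and 8 were higher and 3, 4, 3 and 3 lower, and of 70 mitochondrial ribosomal genes 15, 18, 17 and 19 were higher and 5, 8, 7 and 4 lower. Of 11 glycolytic genes, 8, 8, 7 and 7 were higher and 1 was lower in each group. Hk1, which phosphorylates glucose, exceeded small intestine by 2.10 to 2.47 log2.

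Among 12 chain partners, 3, 2, 3 and 3 were higher and 2, 1, 1 and 2 lower. Cycs, the cytochrome c gene, differed by -0.35 to -0.07 and passed in no group. Atpif1, the inhibitor of ATP synthase, was lower in colon in VSL#3-treated and PBS-treated BALB/c mice, by -0.46 and -0.42, and in VSL#3-treated C57BL/6 mice, by -0.26. Among 12 regulators, 4, 4, 3 and 4 were higher and 2, 2, 1 and 1 lower. Ppargc1a and Ppargc1b, coactivators of mitochondrial genes, were higher in colon in every group, by 0.55 to 0.99 and 1.02 to 1.19 log2. Esrra, a nuclear receptor that works with them, was lower in every group, by -0.51 to -0.43. Nrf1 passed in VSL#3-treated BALB/c mice alone (-0.34), and Gabpa in no group.

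Cell type markers moved with tissue as well. Of 7 tested smooth muscle markers, 6, 6, 7 and 6 were higher in colon in the same 4 groups, with median differences of 1.10, 1.28, 1.13 and 1.14 log2. The summed intensity of the 8 on the array was 45200 to 68751 in colon groups and 17912 to 37640 in small intestinal groups. T cell markers were lower in colon, 5 of 5 in every group, with a median of -1.36 in PBS-treated BALB/c mice and below that in the others. The summed intensity of 7 skeletal muscle markers was 232 to 312 in VSL#3-treated and 256 to 336 in PBS-treated BALB/c colon, and 217 to 788 in VSL#3-treated and 194 to 1137 in PBS-treated C57BL/6 colon. In small intestine it was 210.3 to 237 in VSL#3-treated and 190.2 to 256 in PBS-treated BALB/c mice, and 551 to 1503 in VSL#3-treated and 430.3 to 1819 in PBS-treated C57BL/6 mice. Of the 2 skeletal muscle markers tested, 1 was higher in colon in PBS-treated BALB/c mice, and 1 was lower in colon in VSL#3-treated and 1 in PBS-treated C57BL/6 mice. The part of these cell types in the respiratory gene differences was not tested.

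VSL#3 was compared with PBS within each strain and tissue. No member was called higher or lower. In each of the 4 comparisons 0 of 72 members passed an adjusted p of 0.05, and the share of all genes called was 0.0% (limma, over 9833 genes in colon and 9634 in small intestine). At an unadjusted p under 0.05, the members numbered 0 in BALB/c colon, 2 in C57BL/6 colon, 2 in BALB/c small intestine and 0 in C57BL/6 small intestine, against 3.43%, 6.44%, 6.14% and 4.22% of all genes. At a difference above 0 were 33, 26, 32 and 32 members, against 47%, 48.7%, 53% and 49.3% of all genes. Member medians were -0.01, -0.04, -0.01 and -0.02 log2, against -0.01, -0.01, 0.01 and 0.00 over all genes. With median scaling the BALB/c small intestinal median was 0.11, against 0.12 over all genes.

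The intervals say how large an effect could have been missed. The median standard error of a member was 0.10 log2, and the 95% interval lay within 0.5 log2 on either side of 0 for 64, 61, 57 and 58 of 72 members in the order above. It lay within 0.25 log2 for 28, 22, 34 and 29. Averaging the strains, 0 members passed in colon and 0 in small intestine, with 0 and 0 at an unadjusted p under 0.05, against 4.93% and 4.46% of all genes, and 29 and 29 above 0, against 47.3% and 51.8%. When the C57BL/6 effect was subtracted from the BALB/c effect, 0 members passed in colon and 0 in small intestine (0.0% of all genes in each, limma). There, 1 and 3 members had an unadjusted p under 0.05, against 4.56% and 5.38% of all genes, and 42 and 38 lay above 0, against 49.1% and 52.9%.

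**Figure D3:**
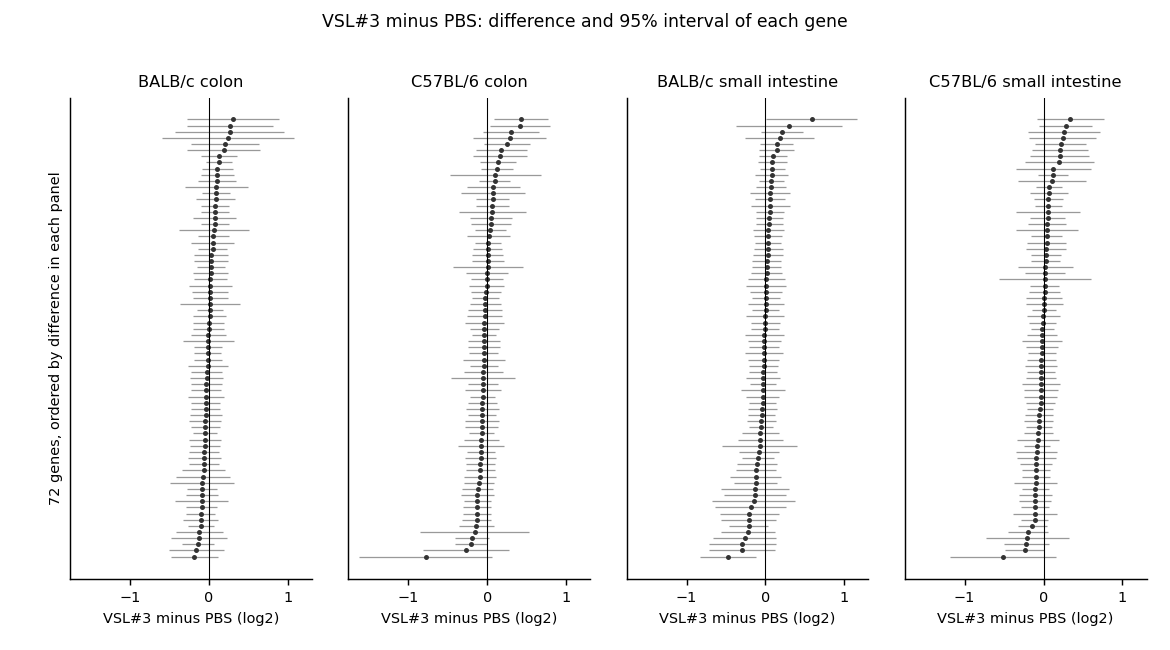
VSL#3 minus PBS (log2 intensity, horizontal axis) with 95% intervals for the 72 genes tested, ordered by difference within each panel, for 2 tissues of 2 strains with 5 mice per group. Points crowd around 0, and the widest intervals belong to dim genes such as Cox8b.

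Atp5a1, the alpha subunit of the catalytic head, had the smallest unadjusted p among members in C57BL/6 colon. It had 11.99, 12.75, 12.11, 12.64 and 12.51 log2 in VSL#3-treated C57BL/6 colon, against 12.15, 11.89, 12.06, 11.77 and 11.99 in PBS-treated C57BL/6 colon. The groups overlapped, and the difference was 0.43 ± 0.167 (limma p 0.0182, adjusted p 0.677). In BALB/c colon its median was 11.92 with VSL#3, against 12.15 with PBS. Cox6b2 differed by -0.47 in BALB/c small intestine (limma p 0.0122, adjusted p 0.791), at 5.11 to 5.77 in VSL#3-treated mice, all below the 5.87 to 6.22 in PBS-treated mice. It was the only member in BALB/c small intestine whose VSL#3 arrays all lay below PBS, 1.39% against 0.374% of all genes, and 0 lay wholly above, against 0.488%. In C57BL/6 small intestine Cox7c alone lay wholly below, by -0.08 log2 (1.39% against 0.280%, limma adjusted p 0.998), and 0 lay wholly above, against 0.343%. In colon 0 members lay wholly above or below PBS, against 0.275% and 0.325% of all genes in BALB/c and 0.447% and 0.417% in C57BL/6 mice. Cox8b had the lowest difference in C57BL/6 colon, -0.78 log2, which became -0.26 without PBS-treated replicate 3.

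BALB/c was compared with C57BL/6 within each treatment and tissue, asking whether expression of the chain depends on strain. Few members differed, but in VSL#3-treated small intestine their share equalled that of all genes. In VSL#3-treated colon 3 were higher and 1 lower, in VSL#3-treated small intestine 7 higher and 2 lower, in PBS-treated colon 0 higher and 2 lower, and in PBS-treated small intestine 2 higher and 0 lower. That is 5.56%, 12.5%, 2.78% and 2.78% of 72 members, against 11.1%, 12.5%, 11.8% and 10.9% of all genes. In PBS-treated colon, 6.08% of all genes were higher and 5.76% lower. Other scalings changed these splits: in VSL#3-treated colon to 4 higher and 0 lower with median scaling and 3 and 0 without background correction, and in PBS-treated colon to 0 and 0, and to 1 and 2. In VSL#3-treated small intestine, leaving out any 1 array gave 4 to 7 calls in place of 9. Without the 3 arrays high in acinar markers, 2 members were called in VSL#3-treated colon. Above 0 lay 49 of 72 members in VSL#3-treated colon, 47 in VSL#3-treated small intestine, 45 in PBS-treated colon and 56 in PBS-treated small intestine, against 50.7%, 55.3%, 52.4% and 54.1% of all genes. Member medians were 0.04, 0.12, 0.03 and 0.10 log2 in that order, against 0.01, 0.03, 0.01 and 0.02 over all genes.

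Ndufa12, an accessory subunit of complex I, showed the smallest adjusted p in small intestine. In VSL#3-treated small intestine it had 11.06, 11.31, 11.11, 11.21 and 11.12 log2 in BALB/c mice, against 10.45, 10.54, 10.29, 10.45 and 10.48 in C57BL/6 mice. In PBS-treated small intestine it had 11.06, 10.96, 11.32, 11.19 and 11.21 in BALB/c mice, against 10.57, 10.63, 10.63, 10.27 and 10.57 in C57BL/6 mice. Every BALB/c array exceeded every C57BL/6 array in both treatments. The differences were 0.72 and 0.61 log2 (SE 0.096, limma adjusted p 1.26e-05 and 0.000107), which are 1.65-fold and 1.53-fold. In colon it was 0.45 ± 0.086 with VSL#3 (limma adjusted p 0.000988) and 0.25 ± 0.086 with PBS, where it fell short (limma adjusted p 0.0656).

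Ndufb10, another accessory subunit of complex I, was higher in BALB/c colon with VSL#3, at 8.86, 9.15, 9.01, 9.66 and 9.43 log2, against 7.36, 8.53, 8.37, 8.40 and 7.95 in C57BL/6 mice. The groups did not overlap, and the difference of 1.10 ± 0.261 was 2.14-fold (limma adjusted p 0.00722). It was 0.79 ± 0.253 in VSL#3-treated small intestine (limma adjusted p 0.0434), and in PBS-treated mice 0.56 in colon and 0.73 in small intestine, short of the threshold (limma adjusted p 0.191 and 0.0704). PBS-treated C57BL/6 replicate 3 had the highest C57BL/6 values in both tissues, 9.53 in colon and 9.17 in small intestine.

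Uqcrb, which binds ubiquinone in complex III, ran the other way. With VSL#3 it had 11.89, 12.15, 11.56, 11.69 and 11.93 log2 in BALB/c colon, against 12.11, 12.75, 12.58, 12.20 and 12.22 in C57BL/6 colon, with a slight overlap. The difference was -0.53 ± 0.161 in colon and -0.56 ± 0.168 in small intestine (limma adjusted p 0.0376 and 0.0297), and -0.36 and -0.33 in PBS-treated colon and small intestine, where neither passed. The colon call was lost with median scaling, without background correction, without the detection filter, without the 3 acinar-high arrays and in some fits that left out a single array.

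Ndufv3, Uqcr10, Uqcr11, Atp5j and Ndufa4 were higher in BALB/c than in C57BL/6 small intestine with VSL#3, by 0.52, 0.33, 0.27, 0.26 and 0.28 log2 (limma adjusted p 0.00458, 0.00556, 0.041, 0.0411 and 0.0412). The second bright Ndufv3 probe gave 0.29 and the second Atp5j probe 0.28, and neither passed (limma adjusted p 0.171 and 0.123). Ndufa4 also passed with PBS, by 0.28 (limma adjusted p 0.0496), a call lost with median scaling, no detection filter, all kept probes, the source code letter or the replicate number as a block, the compared groups only, and in most fits that left out an array. With VSL#3, the dim Cox6b2 was lower in BALB/c small intestine by -0.76, at 5.11 to 5.77 log2 against 5.97 to 6.48, without overlap (limma adjusted p 0.00412). In PBS-treated small intestine Cox6b2 did not pass, and 0 members were called lower in BALB/c. In colon, Ndufc2 was higher in BALB/c with VSL#3 by 0.40 (limma adjusted p 0.00308), and Ndufa3 and Ndufb8 were lower in BALB/c with PBS by -0.31 and -0.29 (limma adjusted p 0.0272 and 0.0154). All 4 of these strain comparisons carry the supplier with the strain. Of 5 tested T cell markers, 5 were higher in BALB/c in PBS-treated colon, and 1, 2 and 1 in VSL#3-treated colon, VSL#3-treated small intestine and PBS-treated small intestine, where the others did not pass. Of 2 tested skeletal muscle markers, 1 was lower in BALB/c small intestine with VSL#3 and 1 with PBS. Their part in the respiratory gene differences was not tested.

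**Figure D4:**
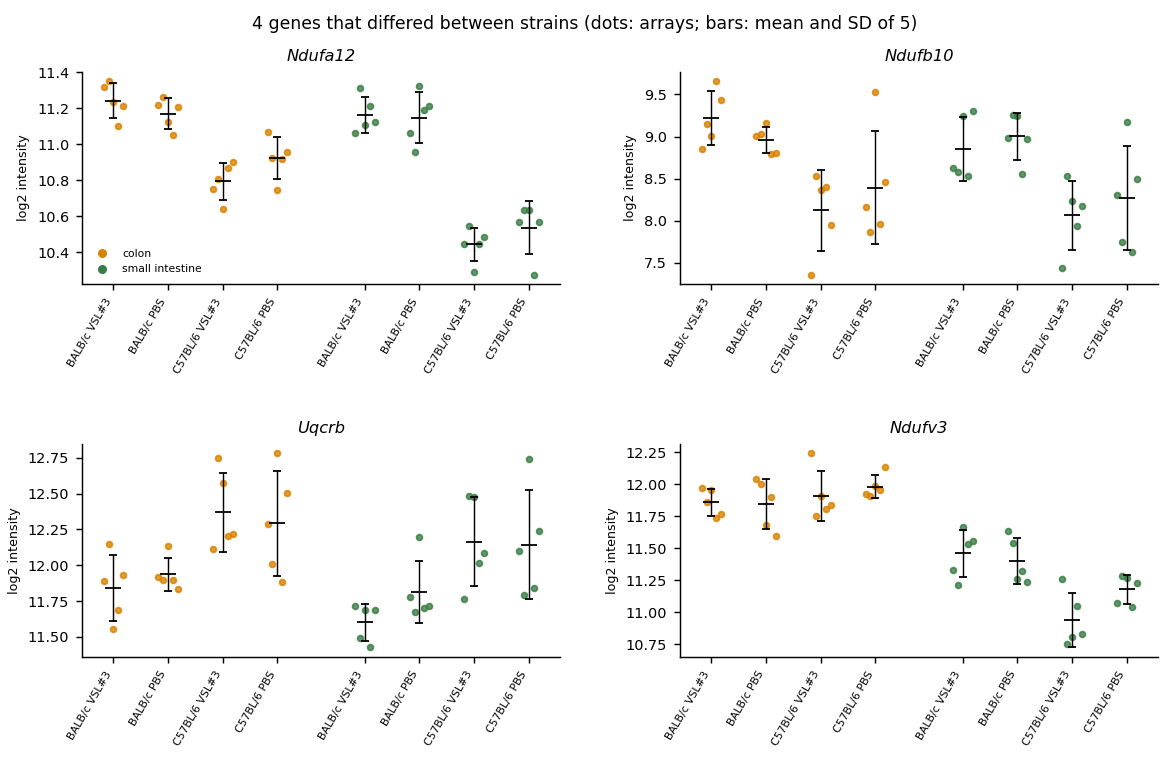
Log2 intensity (vertical axis, each panel with its own range) of 4 genes on the 40 arrays, 5 per group, with colon in orange and small intestine in green, and bars for mean and SD. Ndufa12 and Ndufb10 lie higher in BALB/c groups and Uqcrb lower, while Ndufv3 lies higher in BALB/c small intestine with some overlap.

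Mice of one group differed from each other in a set of these genes, and colon and small intestine of a mouse differed together. For each gene tested in both tissues, the deviation of each array from its group mean was correlated between the tissues of the 20 mice, with mice permuted within groups 100000 times. Of 72 members, 14 passed a Pearson adjusted p of 0.05 over all 9200 genes, or 19.4%, against 4.72% of all genes. With Spearman's rho also required, 7 remained, or 9.72%, against 1.89%. The median r was 0.435 over members and 0.268 over all genes, so positive correlations were not limited to the members. No chip or extraction batch was given in the labels, so the mouse and any handling that both its samples shared cannot be told apart. The source codes carry a letter, A or B, that both samples of a mouse share and whose meaning is not given. Mice were permuted across the letters, and the part of the letter in these correlations was not tested.

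Cox6c, a complex IV subunit, had the highest r among members, 0.861, with a Spearman rho of 0.780 (permutation p 0.00011 and 0.00045, adjusted 0.0151 and 0.0342). Without the 2 mice farthest from the median in colon r was 0.777. It had medians of 13.04 log2 in colon and 12.67 in small intestine, and maxima of 13.87 and 13.46, with a within-group SD of 0.44. Ndufb4, an accessory subunit of complex I, had r = 0.822 and rho = 0.827 (permutation p 9e-05 and 0.0001, adjusted 0.0140 and 0.0200), and r = 0.773 without the 2 mice. Atp5e, the epsilon subunit of ATP synthase, had r = 0.803 and rho = 0.832 (permutation p 7e-05 and 0.00011, adjusted 0.0134 and 0.0203), and r = 0.781 without the 2 mice. Atp5a1 had r = 0.757 and rho = 0.774 (permutation p 0.00045 and 0.00065, adjusted 0.0254 and 0.0388), and r = 0.708 without the 2 mice. The other genes that passed both were Atp5g2, Ndufb5 and Ndufb3.

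Some of these genes varied together across the 40 arrays and others did not. As a description, deviations of Atp5a1 from its group means had r = 0.882 with Ndufb5, 0.853 with Ndufb4, 0.812 with Cox6c, 0.755 with Cox7b and 0.71 with Atp5e. Of the other genes that passed both tests, Atp5g2 had r = 0.137 and Ndufb3 r = -0.08 with Atp5a1. Ndufv1, a core subunit of complex I that passed the Pearson test alone, had r = -0.626, and the median r of Atp5a1 with the other members was -0.03. The 40 arrays share mice and a normalization, so they are not independent points.

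**Figure D5:**
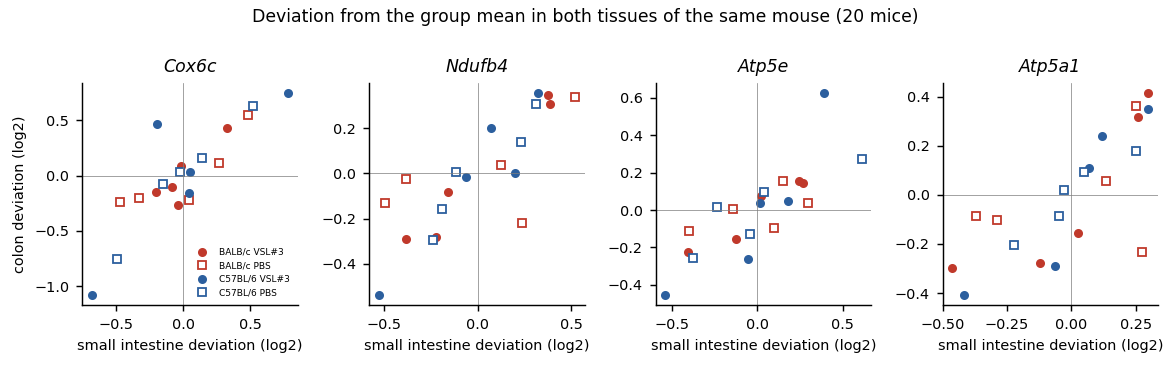
Deviation from the group mean (log2 intensity) in colon (vertical axis) against small intestine of the same mouse (horizontal axis) for 4 genes, 20 mice, with colours for strain, filled circles for VSL#3 and open squares for PBS. Mice high in one tissue tend to be high in the other, with r of 0.861 for Cox6c, 0.822 for Ndufb4, 0.803 for Atp5e and 0.757 for Atp5a1.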

How the data were processed

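Total RNA (500 ng) was amplified and 750 ng of cRNA was hybridized to Illumina MouseRef-8 BeadChips, per the labels' protocols. The authors deposited a table of non-normalized intensity values per probe with a detection fraction, which held 1 minus the detection p, and a table of normalized log2 values. The submitters' processing notes name limma. In the deposited log2 table, 10 of 40 columns, those of VSL#3-treated colon, followed arrays of the other strain in the intensity table, so it served only as an alternative for comparisons without them. In values from the intensity table, the strain marker H2-Ea lay at 11.78 to 13.57 log2 on the 20 BALB/c arrays. On the 20 C57BL/6 arrays it lay at 4.66 to 6.98, so the strain labels matched there.

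From the intensities, limma 3.58.1 in R 4.3.3 gave background-corrected, quantile-normalized log2 values (neqc with detection p, offset 16). Of 25697 probes, 23978 had 1 gene symbol and 1719 had none in the platform annotation. The probe with the highest mean stood for a gene. Four-group means per tissue and within-mouse differences were fitted with lmFit and eBayes, with Benjamini-Hochberg adjustment over all genes. Each group held 5 mice, which limits the precision. Depth does not apply to arrays. Same-numbered mice of different groups were not paired by any label, and at most 2 of 5 pairs correlated over 0.1. The tests were checked on simulated data. The members and the lists were chosen with earlier results of these data known. Text names up to 12 rises and 12 falls per comparison (5 members by p where fewer than 5 passed), paralogue sets, and genes of the lists. The promoter sequences are RefSeq's, for 64 of 77 members.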

Additional observations from a re-analysis of the deposited data

Results flagged for a closer look

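In 192 sets of 5 arrays (single genes or means over a complex), 12 held an array that stood apart from the other 4 by Dixon's criterion (0.71 for 5 arrays), where chance flags about 1 in 20. For Cox8b these were PBS-treated C57BL/6 colon replicate 3 at 8.31 log2 (nearest array 6.06), VSL#3-treated C57BL/6 colon replicate 5 at 5.52 and PBS-treated C57BL/6 small intestine replicate 2 at 5.67. Uqcrb stood high in both tissues of PBS-treated BALB/c replicate 3, at 12.14 in colon (nearest 11.92) and 12.20 in small intestine (nearest 11.78), and Cox6b2 in its small intestine was 6.22 (nearest 5.93). Ndufa12 was 10.27 in PBS-treated C57BL/6 small intestine replicate 4 (nearest 10.57), Atp5g2 was 10.10 in VSL#3-treated BALB/c colon replicate 1 and Atp5j was 13.19 in PBS-treated C57BL/6 colon replicate 3 (nearest 13.47). For mean deviations over a complex, complex I was -0.11 in VSL#3-treated C57BL/6 small intestine replicate 2 (nearest -0.20), and complex II was -0.080 in PBS-treated BALB/c small intestine replicate 2 (nearest 0.06) and 0.24 in PBS-treated C57BL/6 small intestine replicate 3 (nearest -0.22).

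The colon excess of Ndufv3 differed between the strains in VSL#3-treated mice, by -0.57 log2 (BALB/c minus C57BL/6, limma adjusted p 0.00614).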

How the results depend on the processing

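Over 132 named gene results, 2219 of 2367 values under alternatives stayed on their side of the threshold, 139 passed no longer, 9 passed newly and 0 changed sign. Counts of members called moved by over 1.5 times as follows. BALB/c against C57BL/6 in PBS-treated small intestine, 2 called, gave 4 without background correction and with the deposited normalized table, and 1 with median scaling, no detection filter, all kept probes, the source code letter as a block, or the compared groups only. In PBS-treated colon, 2 called, it gave 0 with median scaling, compared groups only and the normalized table. In VSL#3-treated colon, 4 called, it gave 2 without the 3 acinar-high arrays. Colon against small intestine in VSL#3-treated BALB/c mice, 39 called, gave 25 with median scaling. The strain difference in the tissue effect gave 1 in place of 0 in PBS-treated mice without background correction or with detection on every array of a group, and 2 in place of 1 in VSL#3-treated mice with all kept probes. With the replicate number as a block, which pairs no mice by label, 25 of 39 in VSL#3-treated and 21 of 34 in PBS-treated BALB/c mice were called, and no other count moved by over 1.5 times. Leaving out each array gave 3 to 5, 4 to 7, 0 to 3 and 1 to 5 strain calls in VSL#3-treated colon, VSL#3-treated small intestine, PBS-treated colon and PBS-treated small intestine (4 without VSL#3-treated C57BL/6 small intestine replicate 3, 0 without PBS-treated BALB/c colon replicate 4, 5 without PBS-treated C57BL/6 small intestine replicate 3). Leaving out each mouse gave 29 to 37, 29 to 33, 41 to 45 and 39 to 44 tissue calls in VSL#3-treated BALB/c, PBS-treated BALB/c, VSL#3-treated C57BL/6 and PBS-treated C57BL/6 mice. Every VSL#3 comparison gave 0 calls under all alternatives run. The normalized table could not be used for VSL#3-treated colon. Median scaling shifted the all-gene median to 0.12 in VSL#3 minus PBS BALB/c small intestine, 0.15 in its strain difference, 0.14 in BALB/c minus C57BL/6 VSL#3-treated small intestine and 0.11 in colon minus small intestine of PBS-treated BALB/c mice. Dim genes (Cox8b, Cox6b2, Cox6a2) are limited by signal over background.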
